A study of Solenopsis invicta with 4 samples.

Results

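The transcripts described here are the contigs of the fire ant Solenopsis invicta whose levels at 10 °C and at 20 °C can be set directly against each other. They are assembled contigs found in both deposited tables of a cool temperature against 30 °C, with a KEGG entry of this ant or a best nucleotide hit to Solenopsis invicta. The rule found 555 of the 1193 contigs in both tables. All 3 tables together hold 9001 contigs, 4392 of them from the ant. The 555 contigs stand for 526 gene identifiers, and 4 contigs carry none. Their choice rests on levels against 30 °C: the authors' deposited tables list contigs under a raw p of 0.05, and the smallest absolute fold among the members is 2.37 in the table for 10 °C and 2.40 in that for 20 °C. The 1629 ant contigs listed only at 10 °C and the 831 listed only at 20 °C of these 2 tables have no value at the other temperature here and were not compared.

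Adult wild type medium workers, the middle size class of the sterile caste, were held for 24 h at 10, 20, 30 or 40 °C, with 30 °C as the control, after rearing at 25 °C on sugar water, mealworms and an artificial diet. RNA came from whole bodies, and 1 library was made at each temperature. The comparison is therefore one between the library at 10 °C and the library at 20 °C. It has no replicate check and no test, and the labels do not say how many ants or colonies went into a library. Proteins of muscle, fat body, nervous system and eye, gut and venom gland were named by 11, 32, 16, 25 and 10 ant contigs in the 3 tables, and 7 contigs carried a germ line name. No member carried one of the germ line names, which were vasa, nanos, piwi, aubergine and oskar. In whole bodies, fewer cells of a kind and less RNA per cell cannot be told apart.

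Ants are ectotherms, so a cold worker moves, digests and breathes less, and enters chill coma when its nerve and muscle cells can no longer hold their ion balance. Insects meet cold by changing membrane lipids, by mobilising sugars such as trehalose, the main sugar of their blood, and by adjusting respiration, synaptic transmission and protein repair. Both 10 and 20 °C lie below the rearing temperature, and the direct ratio asks what differed between a cold and a cool day apart from the level at 30 °C.

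Levels are CPM, the share of a library taken by a contig on a scale common to all libraries, computed from its reads and the scaled library size behind the authors' normalised values. That size was 30024104 at 10 °C and 23204029 at 20 °C. At 10 °C a single read equals 0.0333 CPM, and at 20 °C it equals 0.0431 CPM. A log2 ratio is that of CPM + 1 at 10 °C over CPM + 1 at 20 °C, a contig was counted if it averaged at least 1 CPM over both libraries, and it was called different at 2-fold. That average can be reached through 1 library alone, so a large fold of a contig near the floor in the other is not independent of the filter. Folds printed beside single genes are plain CPM ratios with an exact 95% interval. With 1 library a temperature, the interval covers counting error only and holds no variation between ants or libraries. It can be too narrow even for counting error, since PCR copies carry no identifier that tells them from separate molecules. Of the 555 members, 343 passed the filter, 260 of them with a protein name, and 212 did not.

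Most of the counted ant contigs, 296 of 343, had a log2 ratio within 2-fold. Like levels cannot be read from that: in 144 of the 296 the counting interval of the plain fold left out equal levels, and 36 had a plain fold of 2 or more that the pseudocount brought under the limit. At 10 °C, 39 stood by this ratio 2-fold or more above their 20 °C level and 8 stood 2-fold or more below it, which is 11.4% and 2.33% of those counted. Over all contigs of both tables, whatever their origin, the shares were 11.8% and 2.84% of 633, so the ant contigs differed about as often as the whole. The median log2 ratio of the ant contigs was 0.15, with quartiles at -0.16 and 0.55, and 208 lay above 0 against 135 below. This tilt lay in the 234 contigs whose level at 30 °C was below both others, with 37 higher, 3 lower and a median of 0.26. In the 105 with 30 °C above both, 1 was higher and 2 lower, with a median of -0.0004. In the 4 with 30 °C between, 1 was higher and 3 lower. The contigs with a protein name gave 32 higher and 4 lower of 260, and those without one 7 and 4 of 83.

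**Figure D1:**
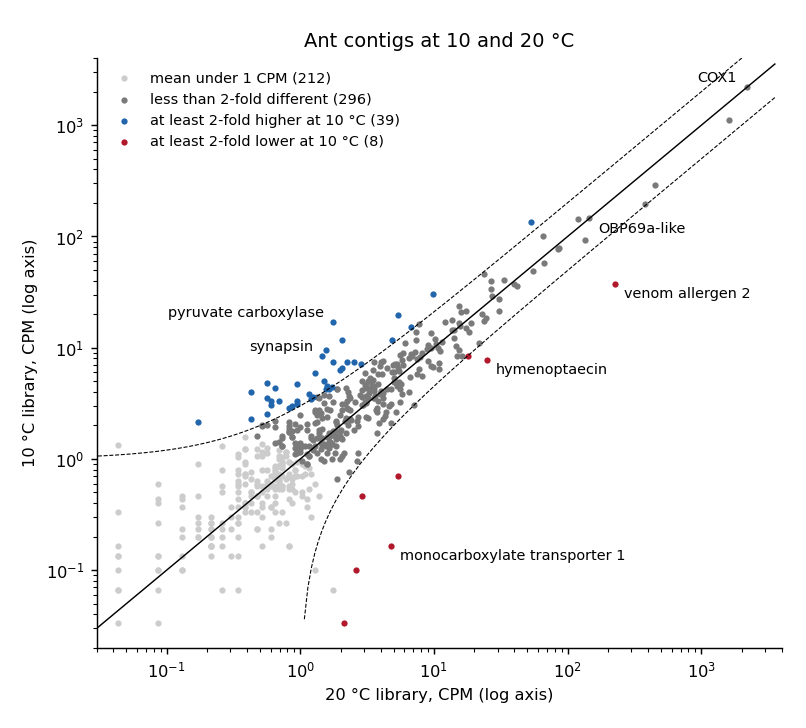
Level of each of the 555 ant contigs in the 10 °C library (vertical) and the 20 °C library (horizontal), both in CPM on log axes, 1 point per contig, with the line of equal levels and dashed lines where the ratio of CPM + 1 is 2-fold. The cloud follows the line of equal levels, with 39 contigs above the upper dashed line and 8 below the lower one.

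The split between higher and lower depends on how the libraries are scaled, and this touches every ratio below. The deposited FPKM values imply that total reads at 10 °C were 0.845 of those at 20 °C, whereas the scaled sizes stand at 1.29. On the FPKM scale every log2 ratio, before the pseudocount, is larger by 0.61, and the counts become 84 higher and 5 lower. Centring on the median ratio of the counted contigs in both tables lowers each log2 ratio by 0.20 and gives 27 higher and 15 lower. The higher contigs thus make up 83.0% of those that differ on the authors' scale, 94.4% on the FPKM scale and 64.3% on the median-ratio scale. All 39 higher contigs were still at least 2-fold higher on the FPKM scale and 27 on the median-ratio scale. Of the 8 lower contigs, all 8 were still at least 2-fold lower on the median-ratio scale and 5 on the FPKM scale. Only contigs listed on the authors' scale could be rescaled.

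The higher contigs were modest in level. At 10 °C they ranged from 2.16 to 135 CPM with a median of 4.53, and at 20 °C from 0.172 to 53.2 CPM with a median of 1.47, where the median contig had 34 reads. The interval of the fold lay wholly past 2-fold for 30 of these 39 contigs and for 7 of the 8 lower ones. By level, the median log2 ratio was 0.12 in the 116 contigs that averaged 1 to 2 CPM, 0.29 in the 121 from 2 to 5 CPM, 0.23 in the 49 from 5 to 10 CPM and -0.10 in the 57 at 10 CPM or more. Among those 57 most abundant contigs, 4 were higher and 3 lower.

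Pyruvate carboxylase had the largest ratio, and a trehalose transporter was also higher at 10 °C. Pyruvate carboxylase (LOC105192780), the mitochondrial enzyme that turns pyruvate into oxaloacetate for glucose synthesis and for the citric acid cycle, stood at 17.0 CPM at 10 °C, against 1.77 CPM at 20 °C. On 511 and 41 reads this was a 9.63-fold difference (7.001 to 13.6), the largest log2 ratio of the counted contigs at 2.70. Its level at 30 °C was 0.470 CPM, so the 3 libraries were ordered from cold to warm. Members were chosen for differing from 30 °C, and 37 of the 39 contigs called higher had that order, so it sets no gene apart. A facilitated trehalose transporter, the Tret1-2 homolog (LOC105197048), which moves trehalose across cell membranes, followed the same order. It had 7.43, 2.54, 0.444 and 0.0922 CPM at 10, 20, 30 and 40 °C, and was 2.92-fold (2.18 to 3.96) higher at 10 than at 20 °C. In the list of trehalose, glycogen and central sugar genes 3 of 8 members were counted, pyruvate carboxylase and the transporter among them. The third was an enolase-phosphatase E1-like contig, an enzyme of methionine salvage by its usual role, with a log2 ratio of 0.42. The other Tret1-like contigs were too low to be counted, LOC105196539 with 16 reads at 10 °C against 17 at 20 °C and LOC105196414 with 19 against 8.

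Of 22 counted neuronal contigs 3 were called higher at 10 °C, against 11.4% over all counted ant contigs, and 0 lower. Synapsin (LOC105193711), a phosphoprotein that coats synaptic vesicles and holds them in reserve, was at 8.43 CPM at 10 °C, 1.47 at 20 °C and 0.261 at 30 °C. Its 253 reads at 10 °C against 34 at 20 °C gave a 5.75-fold difference (4.01 to 8.49). Neuroligin-1 (LOC105199207), a postsynaptic adhesion protein, was 4.52-fold (2.49 to 8.87) higher, on 76 reads against 13. The cysteine-rich motor neuron 1 protein-like contig (LOC105195148), in this list by its name alone, was 3.27-fold (2.04 to 5.46) higher, at 3.10 against 0.948 CPM. On the median-ratio scale 2 of these 3 calls were left, that of cysteine-rich motor neuron 1 being lost at a log2 ratio of 0.95. As a whole the list was near 0: 14 of its 22 contigs had a log2 ratio below 0, and its median was -0.05, against 0.15 over all counted ant contigs. On the FPKM scale the median of the list was 0.44, with 4 called higher. Over the 5 member contigs with names of nervous system and eye markers, synaptotagmins, a blue-sensitive opsin, a sodium channel and a vesicle protein, the summed level was 15.2 CPM at 10 °C, 12.4 CPM at 20 °C and 40.9 CPM at 30 °C, and its part in the ratios was not tested.

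Other neuronal contigs, picked for their level or their ratio, differed in either direction on the authors' scale. Of those named here, all but ELKS/Rab6-interacting/CAST family member 1 differed by less than 2-fold with the pseudocount. The calcium channel type A subunit alpha-1 (LOC105195981), the pore of a voltage-gated channel of nerve endings, had a log2 ratio of -0.14, at 77.3 CPM at 10 °C, 85.3 at 20 °C and 219 at 30 °C. A neurobeachin contig (LOC105196478), a scaffold protein of membrane traffic at synapses, had 93.3 CPM at 10 °C and 136 CPM at 20 °C and was 1.45-fold (1.38 to 1.53) lower, a log2 ratio of -0.54 on the authors' scale and 0.07 on the FPKM scale. Synaptic vesicle glycoprotein 2B-like (LOC105199891), a membrane protein of transmitter vesicles, was 1.85-fold (1.45 to 2.37) higher at 10 °C, with 7.66 against 4.14 CPM, and stood above both at 30 °C with 20.4 CPM. The active-zone protein ELKS/Rab6-interacting/CAST family member 1 (LOC105203844), counted under vesicle traffic, was called higher at 10 °C. It had 3.60 CPM at 10 °C, 1.25 at 20 °C and 15.2 at 30 °C.

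**Figure D2:**
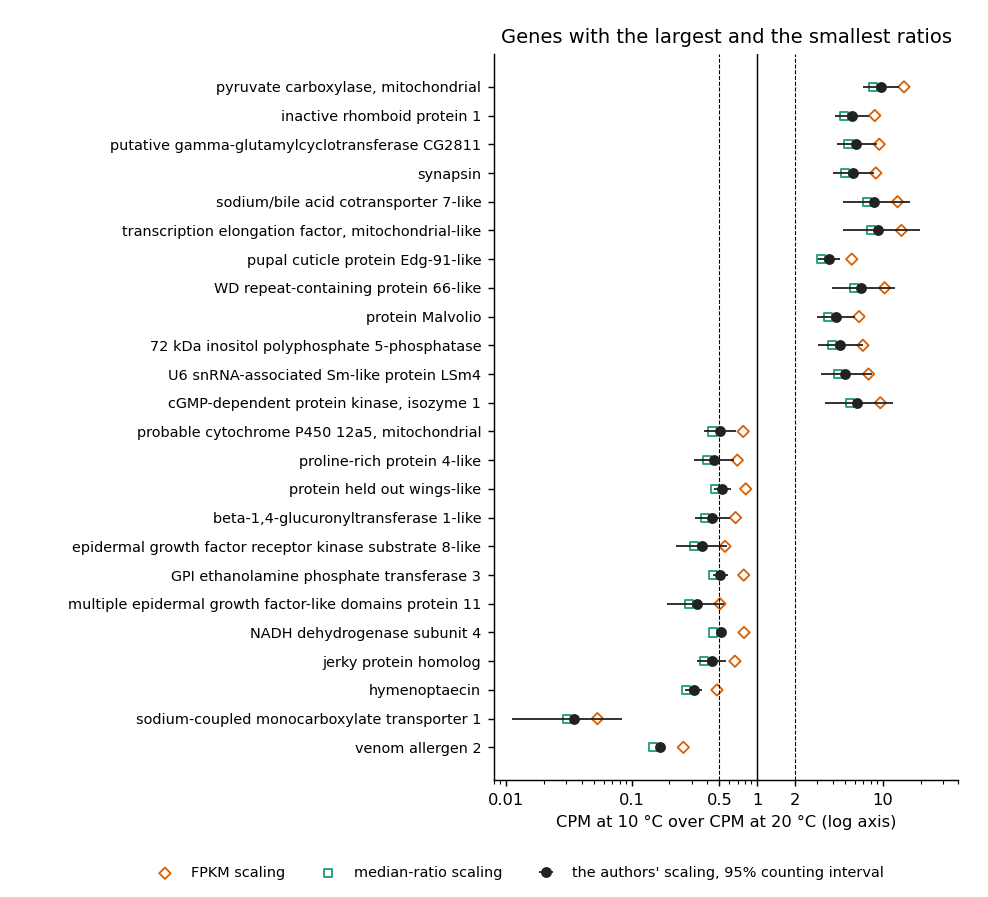
CPM at 10 °C over CPM at 20 °C (log axis) for the 12 named genes with the largest and the 12 with the smallest log2 ratio. Filled points carry exact 95% counting intervals on the authors' scale, and open marks show the FPKM and median-ratio scales. The 12 genes with the largest ratios keep to the right of the 2-fold line on all 3 scales, while on the FPKM scale only venom allergen 2, the monocarboxylate transporter and hymenoptaecin, of the 12 with the smallest, stay left of the line at 0.5.

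Carriers of ions, metals and organic molecules included large differences in both directions. A sodium/bile acid cotransporter 7-like contig (LOC105197439), of a family of sodium-driven carriers, was 8.56-fold (4.85 to 16.5) higher at 10 °C, with 4.80 against 0.560 CPM, and had 1 read at 30 °C. Malvolio (LOC105194195), the insect member of the NRAMP family of iron and manganese transporters, had 7.46 CPM at 10 °C, against 1.77 CPM at 20 °C, and was 4.22-fold (3.02 to 6.04) higher. The sodium-coupled monocarboxylate transporter 1 (LOC105204565), which carries lactate, pyruvate and short fatty acids in mammals, went the other way. It had 0.167 CPM at 10 °C, 4.78 at 20 °C and 1.91 at 30 °C, so that it was 28.7-fold (11.9 to 90.2) lower at 10 than at 20 °C, on 5 reads against 111. Its level at 30 °C lay between the other 2. Of the 9 counted solute carriers and pumps 3 were higher and 1 lower, against 11.4% and 2.33% over all counted contigs, with a median log2 ratio of 0.57. On the median-ratio scale 2 were higher and 1 lower. The 3 include the trehalose transporter and a choline transporter-like protein 1 contig (LOC105197020) at 1.09. A proteasome subunit with ATPase in its name was counted in this list too.

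Enzymes and signalling proteins were among the other contigs called higher. Inactive rhomboid protein 1 (LOC105194126), a relative of rhomboid proteases without their activity, was 5.64-fold (4.16 to 7.79) higher at 10 °C, with 11.7 against 2.07 CPM. A putative gamma-glutamylcyclotransferase (LOC105196178), of the family that processes gamma-glutamyl peptides such as those from glutathione, was 6.12-fold (4.32 to 8.91) higher, with 9.49 CPM at 10 °C against 1.55 CPM at 20 °C. The cGMP-dependent protein kinase, isozyme 1 (LOC105195528), a kinase switched on by cyclic GMP, was 6.24-fold (3.50 to 12.1) higher on 105 reads against 13. The 72 kDa inositol polyphosphate 5-phosphatase (LOC105196631), which removes a phosphate from membrane phosphoinositides, was 4.53-fold (3.07 to 6.92) higher, and hydroxylysine kinase (LOC105199942) 2.84-fold (1.96 to 4.20). Those 3 were the members called higher in the list of kinases and phosphatases, of 13 counted, with 0 lower and a median log2 ratio of 0.42, where the share called higher over all counted contigs was 11.4%. On the median-ratio scale the list had 2 higher and 1 lower, with hydroxylysine kinase at 0.95 and the receptor kinase substrate 8-like contig at -1.02, and on the FPKM scale 5 higher. In the same list the cAMP-dependent kinase catalytic subunit-like contig (LOC105207341) had 13.9 CPM at 10 °C and 18.1 CPM at 20 °C.

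Of 3 histone contigs, H2A and H3.3-like were called higher at 10 °C and H3 was not. Histone H2A (LOC105200468) had 3.33 CPM at 10 °C, 0.690 at 20 °C and 0.131 at 30 °C, a 4.83-fold difference (2.83 to 8.78) between 10 and 20 °C, but its highest level was 17.8 CPM at 40 °C. The histone H3.3-like contig (LOC105208253), the replacement variant laid down outside DNA replication, was 2.53-fold (1.91 to 3.38) higher at 10 °C, with 7.19 against 2.84 CPM. A histone H3 contig (LOC105200070) had 48 reads at 10 °C against 11 at 20 °C, a log2 ratio of 0.82, under 2-fold with the pseudocount. Near-identical copies of histone genes can share reads, so the split among them is uncertain. The list of transcription and chromatin genes had 3 of its 10 counted members higher and 0 lower, against 11.4% higher over all counted contigs, and a median log2 ratio of 0.47. On the median-ratio scale H2A alone was still called in this list, with H3.3-like at 0.93 and the third contig at 0.86. The third was a zinc finger Ran-binding domain-containing protein 2-like contig (LOC105197237), an RNA-binding protein of splicing in vertebrates, which was 2.62-fold (1.81 to 3.87) higher.

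A mitochondrial transcription elongation factor-like contig (LOC105198513), whose mammalian counterpart helps the mitochondrial RNA polymerase along, was 9.20-fold (4.83 to 19.7) higher at 10 °C, on 119 reads against 10 and 1 at 30 °C. LSm4 (LOC105199619), a subunit of rings that bind the U6 splicing RNA and of those that start messenger decay, was 5.02-fold (3.19 to 8.27) higher. The transcripts that the mitochondrial genome itself encodes did not follow. Cytochrome c oxidase subunit I had 2206 CPM at 10 °C and 2214 CPM at 20 °C, a ratio of 0.996 (0.985 to 1.01). NADH dehydrogenase subunit 4 was 1.95-fold (1.89 to 2.02) lower at 10 °C, with 194 against 378 CPM, and subunit 5 was 1.57-fold (1.53 to 1.62) lower, with 288 against 453 CPM. On the FPKM scale the log2 ratios of these 3 were 0.61, -0.35 and -0.04. The distances between subunits are the same on any scale, while subunit I was level on the authors' scale alone. All 3 were lower at 30 °C, at 455, 78.1 and 119 CPM.

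A venom transcript had the lowest log2 ratio of the counted contigs. Venom allergen 2 (LOC105206474), one of the main proteins that fire ants inject with their alkaloid venom, had 37.7 CPM at 10 °C, 224 at 20 °C and 13.6 at 30 °C. On 1133 and 5203 reads it was 5.94-fold (5.57 to 6.34) lower at 10 than at 20 °C, with a log2 ratio of -2.54, or -1.93 on the FPKM scale. A contig named venom allergen 4 (LOC105205100), whose best nucleotide hit is annotated as a noncoding RNA, was 2.40-fold (1.56 to 3.75) lower, with 34 reads against 63. Venom allergen 3 (LOC105199703), a member of the cysteine-rich secretory protein family, was the most abundant venom contig and differed less, with 1106 CPM at 10 °C against 1609 CPM at 20 °C. It was 1.45-fold (1.43 to 1.48) lower on the authors' scale, while its log2 ratio on the FPKM scale was 0.07, so its direction depends on the scale. A venom allergen 2-like contig (LOC105193473) was nearly level on the authors' scale, at 9.69 CPM at 10 °C and 8.92 CPM at 20 °C (1.09-fold, 0.906 to 1.30). The list held 5 counted contigs, 1 called lower and 0 higher, against 2.33% and 11.4% over all counted ant contigs. Its median log2 ratio was -0.54. One of the 5 is a calcium-independent phospholipase A2-gamma-like contig, an intracellular lipase caught by its name. Over the 5 member contigs with venom gland names, the 4 allergen contigs and a phospholipase A1-like one, the summed level was 1155 CPM at 10 °C, 1845 CPM at 20 °C and 357 CPM at 30 °C. Venom allergen 3 made up most of each sum, so how far the sums at 10 and 20 °C lie apart depends on the scale too. Whether the gland's share of RNA differed between libraries was not tested.

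The antimicrobial peptide hymenoptaecin (LOC105196795), which ants, bees and wasps release into the blood during infection, was 3.20-fold (2.75 to 3.75) lower at 10 °C. Its levels were 7.76, 24.9, 0.862 and 0.230 CPM at 10, 20, 30 and 40 °C. On the FPKM scale its log2 ratio was -0.99, just short of 2-fold. The other counted immune contig, peptidoglycan-recognition protein 1-like, a sensor of bacterial cell walls, had a log2 ratio of -0.11. A contig of fatty acid synthase-like gene LOC105205264 was lower at 10 °C too, with 1 read against 49, a ratio of 63.4 (10.9 to 2555). It passed the filter through the 20 °C library alone, at 2.11 CPM against 0.0333 CPM. On the FPKM scale its log2 ratio was -1.38, but it fell under the filter and its list had 0 called lower. Of the other 5 contigs of fatty acid and hydrocarbon synthesis that were counted none was called, and the most abundant, fatty acid synthase-like LOC105205072, had 144 CPM at 10 °C and 120 CPM at 20 °C, against 409 CPM at 30 °C. The 4 fatty acid synthase contigs are the members with fat body names, and their sum was 151 CPM at 10 °C, 129 CPM at 20 °C and 412 CPM at 30 °C. Acyl-CoA Delta(11) desaturase (LOC105200010), which puts a double bond into fatty acyl chains, had 7.29 CPM at 10 °C and 10.9 CPM at 20 °C. Its neighbour LOC105200009, named a desaturase of the same type, had 1.40 CPM at 10 °C against 0.646 CPM at 20 °C. The log2 ratios of the neighbouring pair, -0.52 and 0.54, had opposite signs on the authors' scale, but 0.03 and 0.84 on the FPKM scale did not.

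The remaining named genes that were lower at 10 °C differed less, and none reached 2-fold with the pseudocount on the authors' scale. The jerky protein homolog (LOC105207295), of a family derived from a transposase, was 2.31-fold (1.78 to 3.01) lower, with 3.06 against 7.07 CPM. GPI ethanolamine phosphate transferase 3 (LOC105200254), an enzyme of lipid anchor assembly, was 1.96-fold (1.71 to 2.26) lower, with 11.1 against 21.8 CPM. The held out wings-like contig (LOC105198116), an RNA-binding protein of muscle and tendon in Drosophila, had 8.49 CPM at 10 °C against 16.1 CPM at 20 °C. The contigs of multiple epidermal growth factor-like domains protein 11, the receptor kinase substrate 8-like protein, beta-1,4-glucuronyltransferase 1-like, proline-rich protein 4-like and mitochondrial P450 12a5 had log2 ratios from -0.91 to -0.78. The scale decides these calls: with the pseudocount, all of these were short of 2-fold on the FPKM scale, while on the median-ratio scale jerky at -1.15, the GPI transferase at -1.10, the glucuronyltransferase at -1.05, held out wings at -1.03, the growth factor-like protein 11 at -1.03 and the substrate 8-like protein at -1.02 passed it.

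The odorant-binding and chemosensory carriers, small proteins that ferry odours and other hydrophobic molecules, had no member past 2-fold by the pseudocount ratio on the authors' scale and 4 past it on the FPKM scale. The 6 members were all counted, 4 had a positive log2 ratio, and the median of 0.63 was the largest of the 15 lists with at least 5 counted contigs. Ejaculatory bulb-specific protein 3 (LOC105196182) had 5.03, 2.89, 12.8 and 135 CPM at 10, 20, 30 and 40 °C. Its relative LOC105196234 was 1.82-fold (1.49 to 2.23) higher at 10 °C, with 11.1 against 6.08 CPM. General odorant-binding protein lush (LOC105199702), named after a Drosophila alcohol and pheromone carrier, was 2.10-fold (1.41 to 3.19) higher, on 95 reads against 35. The most abundant member, general odorant-binding protein 69a-like (LOC105195107), was level at 145 CPM in both libraries, with 380 CPM at 30 °C. On the FPKM scale its log2 ratio was 0.61, and that of the other 5 members was positive too.

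**Figure D3:**
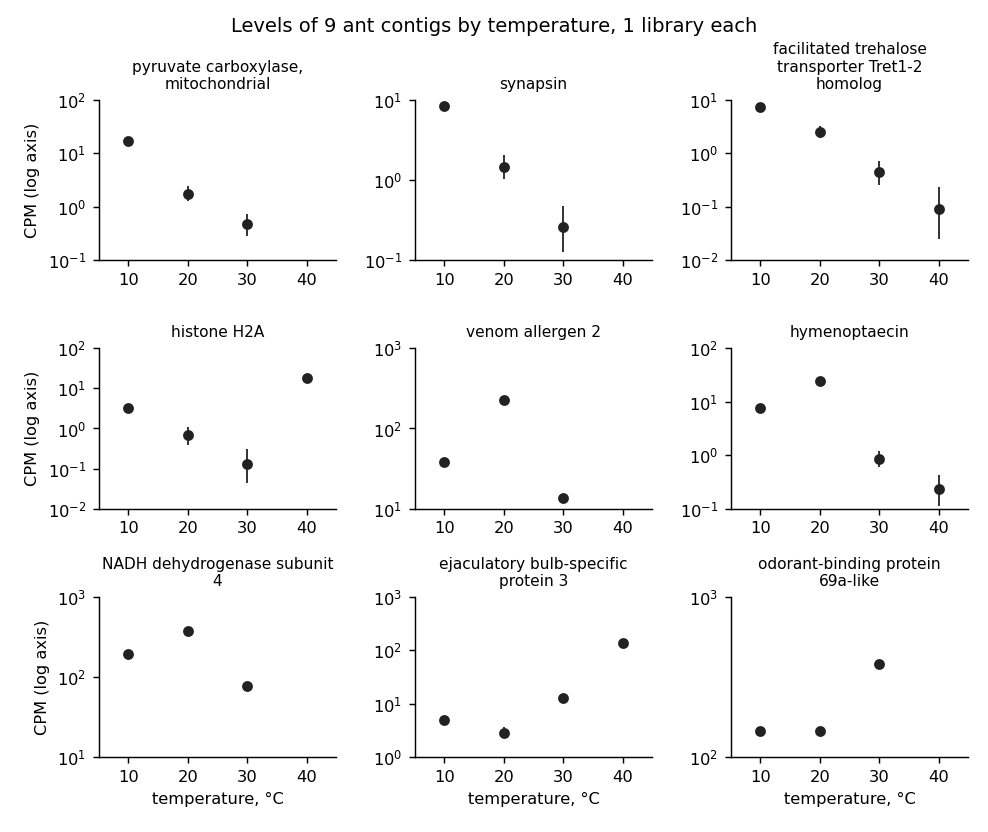
Levels of 9 ant contigs in CPM (log axes, a range of its own in each panel) at 10, 20, 30 and, where the contig is listed there, 40 °C, 1 library a point, with exact 95% Poisson intervals. Pyruvate carboxylase, synapsin and the trehalose transporter are ordered from cold to warm, as were 37 of the 39 higher contigs over 10, 20 and 30 °C. Venom allergen 2 and hymenoptaecin peak at 20 °C, and odorant-binding protein 69a-like has equal levels at 10 and 20 °C.

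The detoxification lists had medians near or below 0 on the authors' scale, with single contigs called higher. On the FPKM scale the medians were 0.44 for cytochromes P450 and 0.08 for other detoxification. Of 18 cytochromes P450, the enzymes that oxidise toxins, hormones and fatty acids, 11 were counted, 1 was higher and 0 lower, against 11.4% and 2.33% over all counted contigs, with a median of -0.04 on the log2 scale. The exception, a P450 6k1-like contig (LOC105206904), had 3.30 CPM at 10 °C, 0.603 at 20 °C and 0.104 at 30 °C. Most abundant was P450 4g15 (LOC105203423), of the insect family that makes cuticular hydrocarbons, with 49.2 CPM at 10 °C and 55.3 CPM at 20 °C. Among 7 counted contigs of other detoxification 2 were higher and 0 lower, with a median of -0.28, and on the median-ratio scale both calls were lost, at 0.91 and 0.90. A UDP-glucuronosyltransferase 3A1-like contig (LOC105200780) was 2.29-fold (1.90 to 2.76) higher at 10 °C and carboxylesterase 5A (LOC105197650) 2.73-fold (1.87 to 4.07), while a 2B31-like one (LOC105202832) was 1.75-fold (1.28 to 2.41) lower.

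Cuticle and matrix contigs numbered only 4 counted, of which 2 were higher and 0 lower, against 11.4% and 2.33% over all counted ant contigs. The pupal cuticle protein Edg-91-like contig (LOC105196226), named for a Drosophila gene of the pupal shell, had 19.8 CPM at 10 °C, 5.34 at 20 °C and 1.15 at 30 °C, and was 3.70-fold (3.04 to 4.52) higher at 10 than at 20 °C. A second pupal cuticle protein-like contig (LOC105207733) went the other way, with a log2 ratio of -0.67. Laminin subunit alpha-1 (LOC105193731), a protein of basement membranes, was 3.18-fold (2.29 to 4.48) higher, with 6.29 against 1.98 CPM. The 2 pupal cuticle contigs are the members with names of immature stages, and their sum was 22.0 CPM at 10 °C, 9.52 CPM at 20 °C and 1.93 CPM at 30 °C. Whether pupae or larvae were in the libraries was not tested.

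Lists of protein turnover had no called member on the authors' scale, though most ratios were positive. On the FPKM scale 3 peptidases and 0 contigs of the proteasome and ubiquitin list were called higher. Of 11 counted peptidases 10 had a positive log2 ratio on the authors' scale, with a median of 0.42, against 208 of 343 and 0.15 over all counted ant contigs. The nearest to 2-fold was the mitochondrial-processing peptidase subunit beta (LOC105204623), which trims proteins after import, with 66 reads at 10 °C against 15 at 20 °C. Among the 6 counted contigs of the proteasome and ubiquitin list 5 were positive, with a median of 0.43, led by a 26S proteasome non-ATPase regulatory subunit 2-like contig (LOC105197079) at 5.76 against 3.84 CPM. In vesicle traffic and autophagy 1 of 8 was higher, against 11.4% over all counted ant contigs, with a median of 0.44. This call was lost on the median-ratio scale. Ribosome and translation had a median of -0.10 over 6 contigs, and the 1 called is the mitochondrial transcription factor described above, caught by its name. Muscle and cytoskeleton, at 0.14 over 6, and DNA replication, repair and cell cycle, at 0.17 over 6, had none called. In the replication list 2 of the 6 are reverse transcriptases of jockey-like mobile elements. In all, 8 of the 15 lists had a median above that of all counted ant contigs. The other 12 lists had under 5 counted contigs. Chaperones had 3 counted and none called, led by a peptidyl-prolyl cis-trans isomerase-like contig (LOC105198937) at a log2 ratio of 0.999, with 61 reads at 10 °C against 12 at 20 °C. Another of the 3, T-complex protein 11-like protein 1, is no known chaperone and was caught by its name. Of the 4 members of this list, T-complex protein 1 subunit zeta (LOC105202463) was too low to be counted. It was 12.9-fold (4.02 to 66.3) lower at 10 °C, on 3 reads against 30. The lipid breakdown list and the respiratory chain list had 4 each and none called. No sensory receptor contig passed the filter, and no clock gene was a member.

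**Figure D4:**
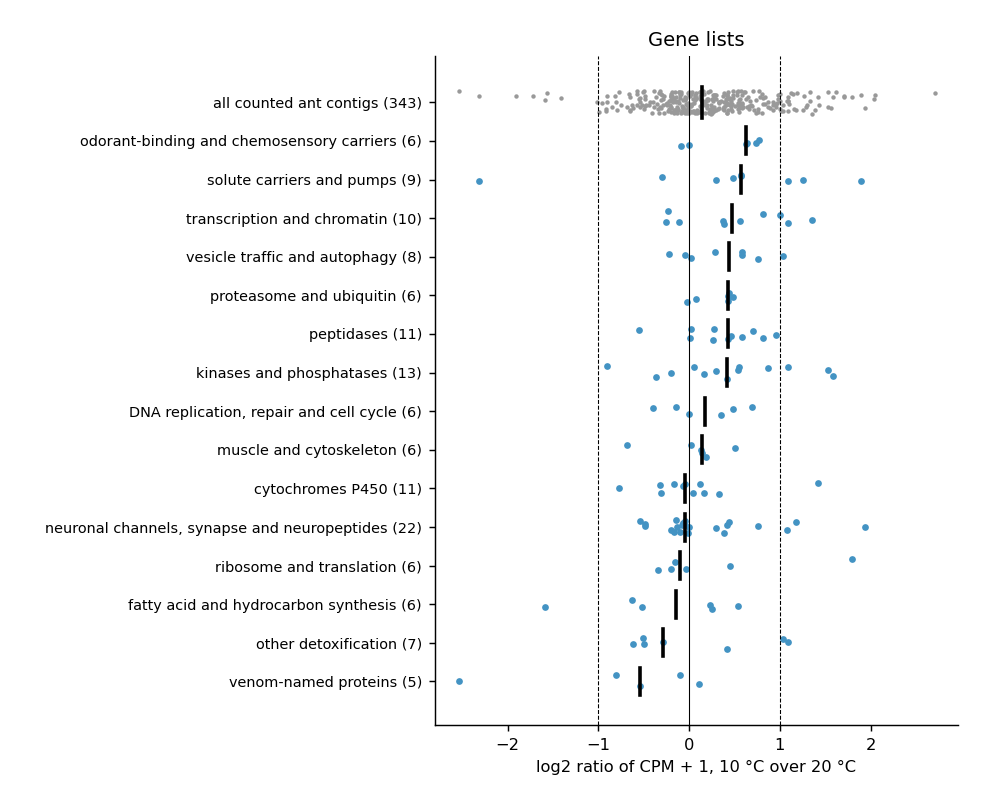
Log2 ratio of CPM + 1, 10 °C over 20 °C, for each counted contig of the 15 gene lists with at least 5 such contigs, ordered by median (black bar), above them all 343 counted ant contigs. Dashed lines mark 2-fold. On the authors' scale, shown here, list medians run from -0.54 for venom-named proteins to 0.63 for odorant-binding and chemosensory carriers, and all lie inside 2-fold. On the FPKM scale the medians of these lists were 0.07 and 1.08, the latter past 2-fold.

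Several called contigs belonged to small lists or to none, and they are named here after their values were seen. The mitochondrial aminomethyltransferase (LOC105194234), a subunit of the glycine cleavage system, was 3.34-fold (2.46 to 4.61) higher at 10 °C, with 7.49 against 2.24 CPM. Thioredoxin domain-containing protein 5 (LOC105195709), which helps form disulfide bonds in the endoplasmic reticulum, had 5.03 CPM at 10 °C and 1.51 CPM at 20 °C, and was the 1 counted member of the oxidative stress list. COP9 signalosome complex subunit 6 (LOC105204012), part of the complex that regulates cullin ubiquitin ligases, was 5.02-fold (2.85 to 9.55) higher on 91 reads against 14. Transcription initiation factor IIA subunit 1 (LOC105197424) was 3.51-fold (2.20 to 5.86) higher and the CUE domain-containing protein 2 (LOC105200648) 2.87-fold (1.88 to 4.53).

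Further contigs of signalling and lipid handling, picked after their values were seen, were not called. Adenylate cyclase type 8 (LOC105208160), which makes cyclic AMP, was 1.54-fold (1.45 to 1.64) higher at 10 °C on its larger contig, with 101 CPM at 10 °C against 65.9 CPM at 20 °C, and stood at 339 CPM at 30 °C. Its second contig gave 1.75-fold (1.26 to 2.47). Protein unc-79 homolog (LOC105200842), a regulator of the sodium leak channel of neurons, gave 79.1 CPM at 10 °C and 86.1 CPM at 20 °C on its larger contig, against 5.96 and 3.06 CPM on the other. Hormone-sensitive lipase (LOC105198580), which releases fatty acids from stored fat, had 10.3 CPM at 10 °C, 14.7 at 20 °C and 1.54 at 30 °C on its larger contig. The log2 ratio of that contig was -0.48 on the authors' scale and 0.09 on the FPKM scale. The second contig of the lipase, too low to be counted, was 1.43-fold (0.698 to 3.05) higher at 10 °C on 24 reads against 13. Sterol regulatory element-binding protein 1 (LOC105199149), a transcription factor of lipid synthesis, had 27.6 CPM at 10 °C and 30.8 CPM at 20 °C, against 83.9 CPM at 30 °C. The NPC2 homolog (LOC105197297), a carrier of sterols and lipids, was 2.10-fold (1.62 to 2.74) higher at 10 °C by the plain fold, with a log2 ratio of 0.89 under the limit. Protein takeout-like (LOC105199218), named for a Drosophila gene of feeding and daily rhythm, was 1.40-fold (1.21 to 1.63) higher, with 16.9 against 12.02 CPM.

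The contigs without a protein name held some of the more abundant differences; those named here lie outside the rule for named genes and were picked after their values were seen. LOC105202242 had 135, 53.2, 17.6 and 192 CPM at 10, 20, 30 and 40 °C, a 2.54-fold difference (2.39 to 2.71) between 10 and 20 °C on 4062 and 1234 reads. LOC105200623 was 3.09-fold (2.67 to 3.59) higher at 10 °C, with 30.2 against 9.78 CPM. On the other side, LOC105206077 was 7.70-fold (4.83 to 12.9) lower at 10 °C, on 21 reads against 125, and LOC105194292 had 3 reads at 10 °C against 61 at 20 °C. Also outside the rule, a contig of the cell adhesion molecule Dscam2 (LOC105207772) had 65 reads at 10 °C and 4 at 20 °C. It was 12.6-fold (4.68 to 47.5) higher at 10 °C, and its 0.810 CPM at 30 °C lay between the others.

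Contigs of one gene did not always give one answer. There are 25 genes with 2 member contigs each, and in 11 of them both were counted. The median distance between the log2 ratios of the pair was 0.44, and in 2 genes it was at least 1. One contig of lifeguard 1 (LOC105197113), an inhibitor of cell death by family, was 3.17-fold (2.30 to 4.44) higher at 10 °C, with 6.56 against 2.07 CPM, whereas the other was 1.30-fold (1.05 to 1.62) lower, with 5.76 against 7.50 CPM. For Malvolio the second contig was 1.40-fold (0.800 to 2.51) higher on 38 reads against 21, beside the 4.22-fold of the first. Both contigs of membrane metallo-endopeptidase-like 1 (LOC105202906) were alike, at 0.26 and 0.27. These contigs may be transcript forms or fragments, and the assembler is not named in the labels.

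The 638 contigs of both tables outside the ant rule, 392 of them with no annotation at all, gave similar figures. Of the 290 counted, 36 were higher at 10 °C and 10 lower, 12.4% and 3.45%, with a median log2 ratio of 0.12, against 11.4%, 2.33% and 0.15 in the ant contigs. The difference between the ant contigs and the others was not tested.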

How the data were processed

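Per the labels' protocols, whole-body RNA was extracted with Trizol and primed with oligo-dT. The submitters' processing notes name RSEM, Bowtie 1.1.2, Trimmomatic 0.38 and FastQC 0.11.7, and for the assembler, the build and the RSEM version: not given in the sources used here. The estimated counts deposited by the authors are whole numbers. The authors' log2 values are those of CPM + 1 at their scaled library sizes, while the FPKM values they deposited rest on other library totals. The signed fold in the authors' deposited tables is a score, negative where lower than at 30 °C, and their p-values rest on 1 library a temperature.

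From these files the 2 cool tables were joined by contig, and the 30 °C values were identical in both. CPM, log2 ratios with a pseudocount of 1 CPM and exact Clopper-Pearson 95% intervals were computed with Python 3.11.15, pandas 2.3.3, numpy 2.4.6 and SciPy 1.17.1, and tested on simulated counts. Members were put in 27 lists by patterns on the gene name, and names caught by accident were left in.

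The rule for named genes took proteins with 50 or more reads in whichever library had more, 1 contig a gene: the 12 largest and 12 smallest ratios, the 6 most abundant and up to 3 of each list with 5 counted contigs, 64 of 199 eligible. Others named in the text were picked after their values were seen. The members, the lists and the rule were chosen with earlier results of these data known. RefSeq assembly UNIL_Sinv_3.0 held 461 of 526 gene identifiers and was used for names and neighbours only. Alternatives were pseudocounts, filters, scalings, 1 contig a gene, a stricter list and a narrower ant rule. With 1 library a temperature no replicate could be left out.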

Additional observations from a re-analysis of the deposited data

How the results depend on the processing

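The 39 ant contigs called higher at 10 °C and the 8 called lower became 62 and 15 with a pseudocount of 0.1 CPM, 7 and 2 with one of 5 CPM, 84 and 5 on the FPKM scale, 27 and 15 on the median-ratio scale, 4 and 3 with a mean of at least 10 CPM, 6 and 1 among the 52 contigs under an adjusted p of 0.05 in both of the authors' deposited tables, and 3 and 2 at a 4-fold limit. They were 40 and 10 with no filter, 38 and 8 with 1 contig a gene, 34 and 8 with the ant rule on KEGG alone, and 32 and 7 where the whole interval of the plain fold had to pass 2-fold. The median log2 ratio, 0.15, was 0.61 on the FPKM scale, 0.012 on the median-ratio scale and -0.10 at 10 CPM or more. The number of lists with a median above that of all members, 8, was 5 at 10 CPM or more and 4 under the adjusted p, where fewer contigs are counted. Of the 64 named contigs, 5 changed sign on the FPKM scale and 1 on the median-ratio scale, none of them called: venom allergen 3, the Delta(11) desaturase, a mitochondrial ribosome assembly contig, cytochrome c oxidase subunit I and odorant-binding protein 69a-like on the first, venom allergen 2-like on the second. No paired analysis was possible because each temperature has 1 library. Depth limits the ratios of low contigs: 34 reads were the median at 20 °C among the contigs called higher.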

Other observations

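Hymenoptaecin and the uncharacterized gene LOC105196875 are neighbours in the RefSeq annotation and were both lower at 10 than at 20 °C. Neighbours did not go together as a rule. Most of the other neighbouring pairs looked at had log2 ratios of opposite sign, such as -0.35 for LOC105202243 and 1.33 for LOC105202242. LOC105203845 and LOC105203844 were both positive, at 0.12 and 1.03. The uncharacterized contig had 14 reads at 10 °C, 67 at 20 °C and 2 at 30 °C, a 6.19-fold difference (3.45 to 11.9) between 10 and 20 °C, with a log2 ratio of -1.41 beside -1.56 for hymenoptaecin. It was picked after its values were seen, and whether the pair shares reads was not tested.

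WD repeat-containing protein 66-like (LOC105202107), an axoneme protein in other animals, had 4.36 CPM at 10 °C, 0.646 at 20 °C and 0.0784 at 30 °C, and was 6.75-fold (3.95 to 12.4) higher at 10 than at 20 °C, among the 12 largest ratios of named genes. Other contigs with names of cilia and flagella were picked after their values were seen. The intraflagellar transport protein 80 homolog (LOC105196846) had a log2 ratio of 0.83, the cilia- and flagella-associated protein 36 contig (LOC105203103) one of 0.30 and the ciliary dynein beta chain-like contig (LOC105192915) one of 0.13. Among 10, 20 and 30 °C the transport protein was highest at 30 °C, at 6.66 CPM, while the other 3 were lowest there.

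Of 13 members annotated as noncoding RNAs, 1 contig, of LOC105193373, had a counting interval above equal levels and 5 had one below, 7 having neither. Over the 343 counted ant contigs, 133 intervals lay above equal levels and 58 below. Among the 5, LOC105197805 with 5 reads at 10 °C and LOC105204582 with 8 were too low to be counted. The intervals are on the authors' scale, and the FPKM scale raises each log2 ratio by 0.61 before the pseudocount. The contig above was at 2.73 CPM at 10 °C and 1.68 CPM at 20 °C. Of the 5 below, LOC105197854 had 8.49 CPM at 10 °C and 15.0 CPM at 20 °C and was 1.76-fold lower at 10 °C.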
